A study of Mus musculus with 25 samples.

Results

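The alcohol, aldehyde and aldo-keto dehydrogenase genes described here were chosen by name. They are the mouse genes whose symbol starts with Adh, Aldh, Akr or Rdh followed by a digit, and whose probe stood well above background on at least 5 of 25 liver arrays. Of 55 such symbols on the array, 51 met this rule, out of 15118 genes tested in all. The other symbols, Adh6a, Akr1c21, Akr1cl and Aldh3b2, were above background on 0 arrays. Probes of 47 of the 51 genes were well above background on every array. The exceptions were Aldh1a2, Aldh18a1, Aldh1l2 and Rdh18-ps.

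The livers came from female C57BL/6NcrSlc mice, 5 per group and 1 array per mouse. Concanavalin A (ConA), a lectin of the jack bean, stimulates T cells and brings on acute hepatitis in mice. BW245C is a compound that activates DP1, one of the receptors of prostaglandin D. The groups were ConA + BW245C at 24 hr, ConA + vehicle at 24 hr, ConA + BW245C at 3 hr, ConA + vehicle at 3 hr, and untreated liver. ConA was given at 10 mg/kg, BW245C at 1 mg/kg or vehicle followed 15 min later into the peritoneum, and livers were taken 3 or 24 hr afterwards. The labels record no injection for the untreated mice, so effects of ConA cannot be told apart from those of vehicle and handling in comparisons with them. Whole liver was measured, in which fewer cells of a type and less RNA per cell cannot be told apart.

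These enzymes pass electrons between alcohols, aldehydes and ketones and a nicotinamide cofactor. Alcohol dehydrogenases (Adh) and retinol dehydrogenases (Rdh) oxidise alcohols such as ethanol and retinol to aldehydes, aldehyde dehydrogenases (Aldh) oxidise those to acids, and most aldo-keto reductases (Akr) run the other way, reducing sugars, reactive aldehydes and steroids. In liver they clear ethanol and products of lipid peroxidation, make and limit retinoic acid, break down amino acids and folate intermediates, and finish bile acid and steroid metabolism, mostly in hepatocytes.

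Levels are log2 signals minus the 75th percentile of their array, so 0 marks a spot as bright as that percentile. Changes are log2 differences between group means, given with the standard error (SE) of a limma fit over the 25 arrays. A gene is said to rise or fall where its adjusted p was under 0.05 (Benjamini-Hochberg over 15118 genes). Depth has no meaning for arrays, whose number limits the precision, and 52.2 to 61.6% of probes were well above background per array.

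The arrays lay on 5 slides that did not hold the groups evenly. Slide 1 held 1 ConA + vehicle 3 hr and 4 untreated arrays, and slide 2 held 1 ConA + BW245C 24 hr, 2 ConA + vehicle 3 hr and 1 untreated array. All 5 ConA + BW245C 3 hr arrays were on slide 3, with 1 ConA + vehicle 24 hr and 2 ConA + vehicle 3 hr arrays. Slide 4 held 3 ConA + BW245C 24 hr and 4 ConA + vehicle 24 hr arrays, and slide 5 held 1 ConA + BW245C 24 hr array. No slide held both ConA + vehicle 24 hr and untreated arrays. Some genes followed the slide inside a group, by a split chosen after the values were seen. Akr1c18, Rdh1, Aldh3a1, Rdh12 and Rdh8 were higher on both slide 3 arrays than on the other 3 arrays of ConA + vehicle 3 hr, and also higher on the 3 slide 4 arrays than on the other 2 arrays of ConA + BW245C 24 hr. Akr1a1, Akr1b10, Akr1c13 and Rdh14 were lower on those arrays in both groups. These were 9.8% and 7.84% of the 51 genes, against 11.3% and 16.4% of all genes tested.

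**Figure D1:**
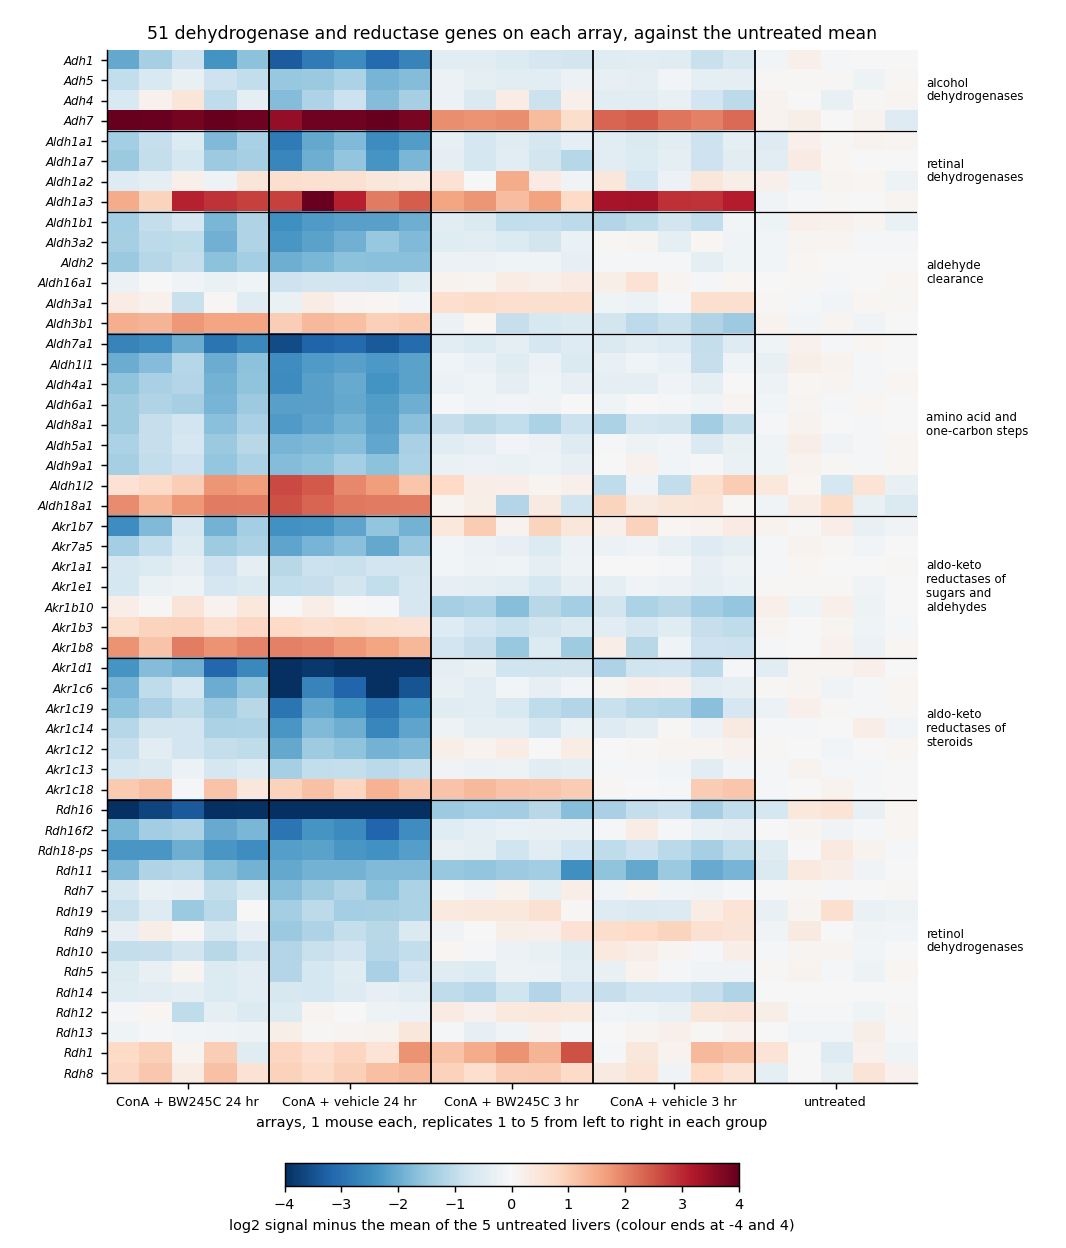
Heat map of the 51 genes (rows, grouped by role) on the 25 arrays (columns, 5 per group), coloured by the log2 signal minus the mean of the 5 untreated livers. Blue fills most rows of both 24 hr groups and is paler with BW245C, and Adh7 and Aldh1a3 are red in the ConA groups.

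At 24 hr after ConA most of these genes fell. In ConA + vehicle 24 hr livers 36 of the 51 genes were lower than in untreated livers and 10 were higher, and 5 did not pass the test. Of all genes tested, 68.9% were called in this comparison, 39.1% lower and 29.8% higher, and of the 51 genes 90.2% were called, 70.6% lower and 19.6% higher. The median change of the 51 genes was -1.44, against -0.082 over all genes tested. Arrays of the groups did not overlap for 36 of the 51 genes on the lower side and 11 on the higher, against 36.7% and 27.4% of all genes and 64% on either side. The steepest falls were those of Rdh16, a retinol and sterol dehydrogenase, Akr1d1, the steroid beta-reductase of bile acid synthesis, and Akr1c6, a hydroxysteroid dehydrogenase. The largest rises were those of Adh7, the retinol-active class IV alcohol dehydrogenase, and Aldh1a3, an enzyme that makes retinoic acid. The authors' series matrix values shifted all genes by a median of 0.34 on the log2 scale here. They gave 7256 genes higher and 3785 lower in place of 4500 higher and 5914 lower, while the 51 genes split into 12 higher and 35 lower. With the slide as a fixed block 3456 of all genes were higher and 4249 lower. Under it Akr1c18 (-0.11), Rdh1 (-0.03), Rdh8 (0.23), Adh4 (-0.74) and Rdh14 (-0.36) lost their calls. Aldh3a1 (-0.95) and Rdh12 (-1.12) were then called lower.

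At 3 hr after ConA fewer of the 51 genes had changed. In ConA + vehicle 3 hr livers 20 were lower and 3 higher than in untreated livers, with 28 not passing the test. Of all genes tested 62% were called at 3 hr, 37% lower and 25% higher, and of the 51 genes 45.1% were called. Their median change was -0.14, against -0.092 over all genes. Arrays did not overlap for 14 genes on the lower and 3 on the higher side, against 29.2% and 18.2% of all genes. The 3 genes that rose were Aldh1a3, Adh7 and Rdh9. With a normexp background 7 genes were higher and 25 lower, Aldh16a1, Aldh18a1, Aldh1l2 and Rdh8 being called higher too. Over all genes it gave 4463 higher and 5264 lower in place of 3779 and 5600. Scaling to the median of probes found on all arrays gave 5 higher (Aldh16a1 and Rdh8 added) and 17 lower, and 4042 and 5336 of all genes. Quantile normalization and the series matrix values each called Akr1a1, Akr1c13, Akr7a5, Aldh2, Aldh4a1 and Aldh5a1 lower too. Quantile normalization also added Rdh7 and lost Akr1b8. Of all genes it gave 3585 higher and 6109 lower, and the series matrix values 3103 and 6789. With the slide as a fixed block 3 genes were higher and 12 lower, beside 3386 higher and 4752 lower of all genes. Every one of the 23 genes kept its direction within slide 1 (1 against 4 arrays) and within slide 2 (2 arrays against 1). These arrays were among those that made the calls, so the kept directions are no independent check.

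Between the ConA + vehicle groups, 34 of the 51 genes were lower and 10 higher at 24 hr than at 3 hr. In this comparison 68.4% of all genes tested were called, 35.3% lower and 33.2% higher, and 86.3% of the 51 genes, 66.7% lower and 19.6% higher. Their median difference was -1.18, against -0.026 over all genes. Arrays did not overlap for 33 genes on the lower and 8 on the higher side, against 27.4% and 24.9% of all genes and 52.3% on either side. The series matrix values gave 8350 of all genes higher and 2923 lower in place of 5014 and 5334 (median shift 0.45). Of the genes called higher, Aldh1l2 (-0.017) and Rdh8 (-0.048) reversed with a normexp background. Akr1c18 (-0.092) reversed with the slide as a fixed block. Aldh1l2 passed the filter only through 24 hr arrays, so its call is not independent of the filter. Within slide 3 (1 array against 2), 43 of the 44 called genes kept their direction, and Akr1c18 did not. Those arrays also entered the fit that made the calls, so kept directions are no independent check.

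**Figure D2:**
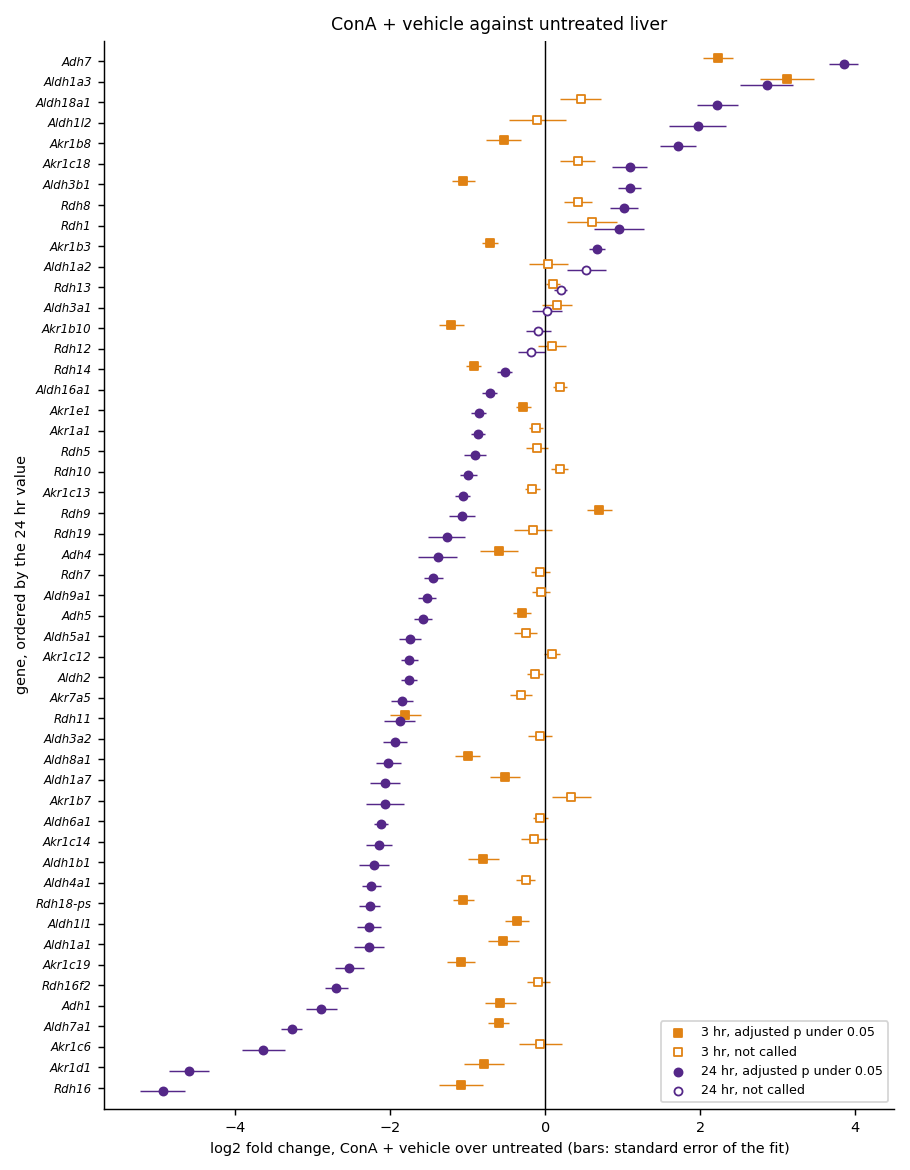
Log2 fold change of each of the 51 genes in ConA + vehicle over untreated liver at 3 hr (squares) and 24 hr (circles), with the standard error of the fit, filled where the adjusted p was under 0.05. At 24 hr the values run from -4.94 for Rdh16 to 3.85 for Adh7, and at 3 hr from -1.80 for Rdh11 to 3.12 for Aldh1a3.

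The 5 promoters below belong to the genes with the largest 24 hr changes in each direction that had a single start in the sequence table. Of these 5 genes 2 rose and 3 fell. Each is the 250 bases before the transcription start on the gene's own strand, 5′ to 3′ (RefSeq, GRCm38.p6). Capitals mark matches to any motif searched on both strands: the TATA box (TATAAA), the AP-1 site (TGANTCA), the core of the antioxidant response element (TGANNNNGC), the C/EBP site (TTGCNNAA), the HNF1 core site (GTTAAT) and the NF-kB site (GGG and CC with 5 bases of any kind between them). Overlapping matches share their capitals. Adh7 (chr3:138217523-138217772, plus strand) and Aldh18a1 (chr19:40588464-40588713, minus strand) rose at 24 hr. Rdh16 (chr10:127800903-127801152), Akr1d1 (chr6:37529923-37530172) and Akr1c6 (chr13:4434093-4434342), all on the plus strand, fell.
Adh7: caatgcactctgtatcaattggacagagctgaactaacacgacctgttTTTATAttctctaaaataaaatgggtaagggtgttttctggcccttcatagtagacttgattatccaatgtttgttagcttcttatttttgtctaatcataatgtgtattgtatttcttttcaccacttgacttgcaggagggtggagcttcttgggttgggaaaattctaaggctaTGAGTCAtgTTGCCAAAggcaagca
Aldh18a1: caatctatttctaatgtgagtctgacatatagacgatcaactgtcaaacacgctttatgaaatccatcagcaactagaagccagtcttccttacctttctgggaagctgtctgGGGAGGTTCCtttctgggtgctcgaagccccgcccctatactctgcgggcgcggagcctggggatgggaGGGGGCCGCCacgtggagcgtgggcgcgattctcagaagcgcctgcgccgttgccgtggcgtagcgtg
Rdh16: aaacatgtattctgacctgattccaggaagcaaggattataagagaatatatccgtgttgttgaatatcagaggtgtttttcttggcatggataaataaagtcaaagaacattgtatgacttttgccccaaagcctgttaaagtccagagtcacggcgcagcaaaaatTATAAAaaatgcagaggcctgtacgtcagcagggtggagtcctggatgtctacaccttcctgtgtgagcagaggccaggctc
Akr1d1: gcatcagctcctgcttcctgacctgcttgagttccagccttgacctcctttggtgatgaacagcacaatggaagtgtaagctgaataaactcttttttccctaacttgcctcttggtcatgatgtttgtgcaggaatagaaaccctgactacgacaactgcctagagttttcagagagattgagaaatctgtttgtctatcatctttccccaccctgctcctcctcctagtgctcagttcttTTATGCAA
Akr1c6: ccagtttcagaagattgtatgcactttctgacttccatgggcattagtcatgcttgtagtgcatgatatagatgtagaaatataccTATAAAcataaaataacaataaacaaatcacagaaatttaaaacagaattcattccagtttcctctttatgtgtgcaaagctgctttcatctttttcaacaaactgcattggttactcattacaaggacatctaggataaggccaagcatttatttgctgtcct

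In the Adh7 promoter the AP-1 letters stood 25 to 19 bases before the start and the C/EBP letters 16 to 9 bases before it. The NF-kB letters appeared at 2 places in Aldh18a1, and TATAAA stood 82 to 77 bases before the start of Rdh16. Promoters were found for 41 of the 51 genes, 46 in all. AP-1 letters were in 2 of 7 promoters of genes that rose at 24 hr and in 2 of 36 promoters of genes that fell, and in 6.75% of all 32851 promoters of that length. The antioxidant response core was in 0 of 7 and 14 of 36, and in 35.2% of all. NF-kB letters were in 3 of 7 and 17 of 36 (45.8% of all), C/EBP letters in 1 of 7 and 3 of 36 (9.56% of all), HNF1 letters in 0 of 7 and 1 of 36 (6.43% of all), and TATAAA in 2 of 7 and 5 of 36 (12.4% of all). No factor's binding was measured, and a match is only a string of letters.

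Of the 4 alcohol dehydrogenases, Adh7 rose and Adh1, Adh4 and Adh5 fell after ConA at both times. Adh7 stood at 0.23, 0.61, 0.59, 0.89 and 0.52 in ConA + vehicle 24 hr livers and at -0.96, -0.87, -1.15, -1.27 and -1.03 in ConA + vehicle 3 hr livers, against -3.13, -3.05, -3.30, -3.15 and -3.79 in untreated livers. The groups did not overlap at either time. Its change was 3.85 (SE 0.19, adjusted p = 8.05e-14), or 14.4-fold, at 24 hr and 2.23 (SE 0.19, adjusted p = 6.84e-10), or 4.68-fold, at 3 hr. Adh1, the class I enzyme that oxidises most ethanol in liver, stood at 5.72, 6.21, 6.54, 5.96 and 6.39 in ConA + vehicle 24 hr livers and at 8.58, 8.64, 8.58, 8.15 and 8.42 in ConA + vehicle 3 hr livers, against 8.94, 9.24, 8.99, 9.05 and 9.04 in untreated livers. It was lower on all arrays of both ConA groups, by 7.41-fold at 24 hr (log2 -2.89, SE 0.20, adjusted p = 1.08e-11) and by 1.49-fold at 3 hr (log2 -0.58, SE 0.20, adjusted p = 0.0144). Adh4, a class II enzyme that also takes retinol, changed by -1.39 at 24 hr and -0.60 at 3 hr. Adh5, the glutathione-dependent formaldehyde dehydrogenase, changed by -1.57 at 24 hr and -0.30 at 3 hr. With the slide as a fixed block Adh4 was no longer called at 24 hr (-0.74, adjusted p = 0.168), nor were Adh1, Adh4 and Adh5 at 3 hr (adjusted p = 0.11, 0.44 and 0.195). The 4 genes neighbour each other on chromosome 3.

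Of the Aldh1a genes, Aldh1a1, Aldh1a2 and Aldh1a3 encode retinal dehydrogenases, which make retinoic acid. Aldh1a3 rose and Aldh1a1 and Aldh1a7 fell at both times. Aldh1a3 stood at -0.96, 0.26, -0.59, -1.60 and -1.26 in ConA + vehicle 24 hr livers and at -0.38, -0.37, -0.76, -0.79 and -0.55 in ConA + vehicle 3 hr livers, against -3.82, -3.73, -3.64, -3.67 and -3.59 in untreated livers. The untreated arrays were within a narrow band and all ConA + vehicle arrays lay above it. The change was 2.86 (SE 0.34, adjusted p = 1.12e-07) at 24 hr and 3.12 (SE 0.34, adjusted p = 3.61e-08) at 3 hr, or 7.26-fold and 8.69-fold. Aldh1a1, the main retinal dehydrogenase of adult liver, stood at 5.14, 5.91, 6.19, 5.44 and 5.74 in ConA + vehicle 24 hr livers, against 7.45, 8.16, 8.003, 8.11 and 8.05 in untreated livers, without overlap. It changed by -2.27 (SE 0.20, adjusted p = 5.17e-10) at 24 hr and by -0.54 at 3 hr (adjusted p = 0.0206, or 0.144 with the slide as a block). Aldh1a7, its neighbour on chromosome 19 and a close copy, changed by -2.06 and -0.52 (adjusted p = 0.123 at 3 hr under that block), and whether its probe also binds Aldh1a1 was not tested. Aldh1a2, the embryonic retinal dehydrogenase, had changes of 0.53 (adjusted p = 0.067) and 0.04 (adjusted p = 0.898).

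Of the 6 genes grouped under clearance of acetaldehyde and lipid aldehydes, 4 (66.7%) fell at 24 hr, against 39.1% of all genes. Aldh3b1 rose. Aldh2, the mitochondrial enzyme that oxidises acetaldehyde, stood at 5.65, 5.78, 5.97, 5.94 and 5.93 in ConA + vehicle 24 hr livers, against 7.50, 7.70, 7.64, 7.59 and 7.63 in untreated livers. It changed by -1.76 (SE 0.10, adjusted p = 8.36e-13), or 3.38-fold, with no overlap, and at 3 hr by -0.14 (adjusted p = 0.257). At 3 hr it was called lower after quantile normalization (-0.25, adjusted p = 0.00689) and with the series matrix values (-0.24, adjusted p = 0.00937). Aldh1b1, a second mitochondrial acetaldehyde dehydrogenase, changed by -2.21 at 24 hr and -0.80 at 3 hr. Aldh3a2, the fatty aldehyde dehydrogenase, changed by -1.93 at 24 hr. Aldh16a1, a little known relative grouped with these enzymes by family and not by a shown activity, changed by -0.72. Aldh3b1, which acts on lipid-derived aldehydes, turned between the times. It stood at 0.46, 0.78, 0.68, 0.45 and 0.54 in ConA + vehicle 24 hr livers and at -1.23, -1.56, -1.40, -1.70 and -1.95 in ConA + vehicle 3 hr livers, against -0.36, -0.62, -0.39, -0.66 and -0.50 in untreated livers. It was 2.13-fold higher at 24 hr (adjusted p = 7.1e-07) and 2.08-fold lower at 3 hr (adjusted p = 1.36e-06). The probes of Aldh3a1, an enzyme of aromatic and lipid aldehydes, disagreed. The brighter one, used throughout, changed by 0.02 at 24 hr, or -0.95 with slides as a block (adjusted p = 8.09e-06), and the dimmer, above background on 13 arrays, by 3.33.

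The 9 aldehyde dehydrogenases of amino acid, carnitine and folate metabolism split into 7 that fell and 2 that rose at 24 hr. These were 77.8% and 22.2%, against 39.1% lower and 29.8% higher of all genes tested. Aldh7a1, which acts in lysine breakdown, stood at 3.84, 4.22, 4.30, 4.05 and 4.33 in ConA + vehicle 24 hr livers, against 7.26, 7.60, 7.36, 7.50 and 7.40 in untreated livers. It changed by -3.27 (SE 0.14, adjusted p = 6.26e-15), or 9.66-fold, without overlap. A second, dimmer probe of Aldh7a1, above background on 19 arrays, changed by -1.88. Aldh1l1, the cytosolic formyltetrahydrofolate dehydrogenase, changed by -2.27, Aldh4a1 of proline breakdown by -2.24, Aldh6a1 of valine breakdown by -2.12, and Aldh8a1 of tryptophan breakdown by -2.02. Aldh5a1, the succinate semialdehyde dehydrogenase, changed by -1.74 and Aldh9a1, which acts in carnitine synthesis, by -1.52. Aldh7a1, Aldh8a1 and Aldh1l1 were also lower at 3 hr, with log2 changes of -0.60, -0.998 and -0.36, the last with an adjusted p of 0.0492 and of 0.182 with the slide as a block. Aldh18a1, which makes proline instead of breaking it down, stood at -1.71, -1.95, -2.16, -2.17 and -2.22 in ConA + vehicle 24 hr livers, against -4.41, -3.97, -3.53, -4.56 and -4.85 in untreated livers. The log2 difference was 2.22 (SE 0.26, adjusted p = 9.52e-08). As the probe was well above background on 5 of 5 ConA + vehicle 24 hr arrays and 2 of 5 untreated arrays, its size is uncertain. Aldh1l2, the mitochondrial counterpart of Aldh1l1, was well above background on 4 ConA + vehicle 24 hr arrays and 2 ConA + BW245C 24 hr arrays, and on 0 of the other 15. It was at least 3.06-fold higher in ConA + vehicle 24 hr livers than in untreated livers (group means -3.83 and -5.80). That bound sets the dim group at the lowest signal well above background. The gene passed the filter only through these 24 hr arrays, so its call as a gene that rose is not independent of the filter.

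The aldo-keto reductases of sugars and aldehydes went both ways at 24 hr, with 4 lower and 2 higher of 7. All 4 that were called at 3 hr were lower. At 24 hr 57.1% were lower and 28.6% higher, against 39.1% and 29.8% of all genes. At 3 hr 57.1% were lower, against 37% of all genes. Akr1b8, a reductase of lipid aldehydes, stood at 3.22, 3.17, 2.95, 2.78 and 2.53 in ConA + vehicle 24 hr livers, against 1.16, 1.24, 1.39, 0.97 and 1.31 in untreated livers. It rose by 1.72 (SE 0.23, adjusted p = 6.08e-07), or 3.29-fold, with no overlap. In ConA + vehicle 3 hr livers it stood at 1.47, 0.11, 1.05, 0.38 and 0.37, lower than in untreated livers (log2 -0.54, adjusted p = 0.0466, or 0.392 with the slide as a block). Akr1b3, aldose reductase, changed by 0.67 at 24 hr and by -0.71 at 3 hr, without overlap at either time. Akr1b10 stood at -0.39, -0.91, -0.77, -1.03 and -1.21 in ConA + vehicle 3 hr livers, against 0.54, 0.19, 0.56, 0.15 and 0.33 in untreated livers, 2.32-fold lower (adjusted p = 6.62e-07). Its 24 hr change of -0.09 did not pass the test. Akr1b7, which lies near these genes on chromosome 6, changed by -2.07 at 24 hr (SE 0.25, adjusted p = 1.32e-07) and had a change of 0.34 at 3 hr (adjusted p = 0.244). Akr7a5, an aflatoxin aldehyde reductase, changed by -1.84 at 24 hr, Akr1a1, the general aldehyde reductase, by -0.87, and Akr1e1, an anhydrofructose reductase, by -0.86. Of these 3 genes Akr1e1 was called at 3 hr, at -0.28 (adjusted p = 0.121 with slides as a block).

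Of the 7 aldo-keto reductases of steroids, 6 fell and 1 rose at 24 hr. These were 85.7% and 14.3%, against 39.1% lower and 29.8% higher of all genes tested. Akr1d1 stood at -2.32, -1.32, -1.98, -2.76 and -1.89 in ConA + vehicle 24 hr livers and at 1.32, 1.74, 1.77, 1.48 and 2.48 in ConA + vehicle 3 hr livers, against 2.12, 2.66, 2.65, 2.76 and 2.55 in untreated livers. It changed by -4.60 (SE 0.26, adjusted p = 4.25e-13), or 24.3-fold, at 24 hr with no overlap, and by -0.79 at 3 hr (adjusted p = 0.0107, or 0.0586 with the slide as a block), where one 3 hr array lay inside the untreated range. Akr1c6, which acts on oestradiol and testosterone, stood at 4.72, 6.49, 6.00, 4.77 and 5.72 in ConA + vehicle 24 hr livers and at 9.29, 9.37, 9.33, 8.74 and 8.82 in ConA + vehicle 3 hr livers, against 9.21, 9.29, 9.04, 9.08 and 9.24 in untreated livers. It fell 12.4-fold at 24 hr (log2 -3.63, SE 0.27, adjusted p = 5.5e-11) and had a change of -0.06 at 3 hr (adjusted p = 0.858). Its 24 hr arrays spread over almost 2 log2 units. Akr1c19 changed by -2.53 at 24 hr and -1.09 at 3 hr, and Akr1c14, Akr1c12 and Akr1c13 by -2.15, -1.75 and -1.06 at 24 hr. These Akr1c genes are close relatives that neighbour each other on chromosome 13, and binding of a probe to a relative was not tested. Akr1c18, the progesterone-inactivating member of the cluster, was called higher at 24 hr (1.09, adjusted p = 0.000169), but followed the slides. It stood at -0.77, -0.51, -0.83, -0.32 and -0.61 in ConA + vehicle 24 hr livers, all on slides 3 and 4, and at -1.67, -1.68, -1.79, -0.68 and -0.59 in ConA + vehicle 3 hr livers, the last 2 on slide 3, against -1.75, -1.73, -1.56, -1.76 and -1.71 in untreated livers on slides 1 and 2. With the slide as a fixed block its change was -0.11 (adjusted p = 0.543).

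Of the 14 retinol dehydrogenases, 10 fell and 2 rose at 24 hr, and 4 fell and 1 rose at 3 hr. At 24 hr these were 71.4% and 14.3%, against 39.1% lower and 29.8% higher of all genes tested. The 3 hr shares, 28.6% and 7.14%, were below the 37% lower and 25% higher of all genes. Rdh16 stood at -1.77, -1.32, -0.78, -0.38 and -0.63 in ConA + vehicle 24 hr livers and at 2.67, 3.01, 3.12, 2.63 and 2.98 in ConA + vehicle 3 hr livers, against 3.25, 4.38, 4.495, 3.65 and 4.04 in untreated livers. Neither ConA group overlapped the untreated one, and the change was -4.94 (SE 0.29, adjusted p = 7.64e-13), or 30.7-fold, at 24 hr and -1.08 (SE 0.29, adjusted p = 0.0023) at 3 hr. Rdh11, a reductase of retinal in the endoplasmic reticulum, fell at both times. It stood at 2.31, 2.47, 2.47, 2.59 and 2.60 in ConA + vehicle 24 hr livers and at 2.77, 2.31, 2.89, 2.34 and 2.51 in ConA + vehicle 3 hr livers, against 3.80, 4.76, 4.64, 4.24 and 4.39 in untreated livers. Its changes were -1.88 (SE 0.20, adjusted p = 1.41e-08) and -1.80 (SE 0.20, adjusted p = 3.48e-08), and its difference between the 2 times was -0.07 (SE 0.20, adjusted p = 0.753). Rdh9 turned between the times, at -0.39, -0.14, 0.15, -0.02 and 0.51 in ConA + vehicle 24 hr livers and 1.79, 1.88, 2.00, 1.71 and 1.60 in ConA + vehicle 3 hr livers, against 0.96, 1.46, 1.12, 0.95 and 0.99 in untreated livers. Its log2 changes were -1.07 at 24 hr and 0.70 at 3 hr, with no overlap at either time.

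Rdh16, Rdh9, Rdh1, Rdh7, Rdh16f2, Rdh19 and Rdh18-ps lie near each other on chromosome 10 and did not share one size of change. At 24 hr Rdh16f2 changed by -2.69, the pseudogene Rdh18-ps by -2.27, Rdh7 by -1.44 and Rdh19 by -1.27, and of these Rdh18-ps was also lower at 3 hr (-1.05). Rdh10, the main retinol-oxidising enzyme of the embryo, changed by -0.99 at 24 hr, Rdh5, known from the retinal pigment epithelium, by -0.90, and Rdh14 by -0.52 at 24 hr and -0.92 at 3 hr. The 24 hr call of Rdh14 was lost with slides as a block (-0.36, adjusted p = 0.0691) and with the series matrix values (-0.18, adjusted p = 0.0516). Rdh12 (-0.18 at 24 hr) and the mitochondrial Rdh13 (0.20) did not pass the test at either time, and Rdh12 changed by -1.12 at 24 hr with slides as a block (adjusted p = 2.48e-05). Rdh13 (adjusted p = 0.0511 at 24 hr) was called higher then with a normexp background (0.17, adjusted p = 0.048). Scaling to the median of probes found on all arrays (0.25, adjusted p = 0.0162) and the series matrix values (0.54, adjusted p = 2.22e-05) called it higher too. Rdh1 and Rdh8 were called higher at 24 hr and followed the slides as Akr1c18 did. Rdh1 stood at 1.66, 1.48, 1.68, 1.35 and 2.61 in ConA + vehicle 24 hr livers, against 1.35, 0.78, 0.29, 0.99 and 0.63 in untreated livers, and its change of 0.95 became -0.03 with slides as a block (adjusted p = 0.968). Rdh8, a photoreceptor enzyme, changed by 1.02, or by 0.23 with slides as a block (adjusted p = 0.521).

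**Figure D3:**
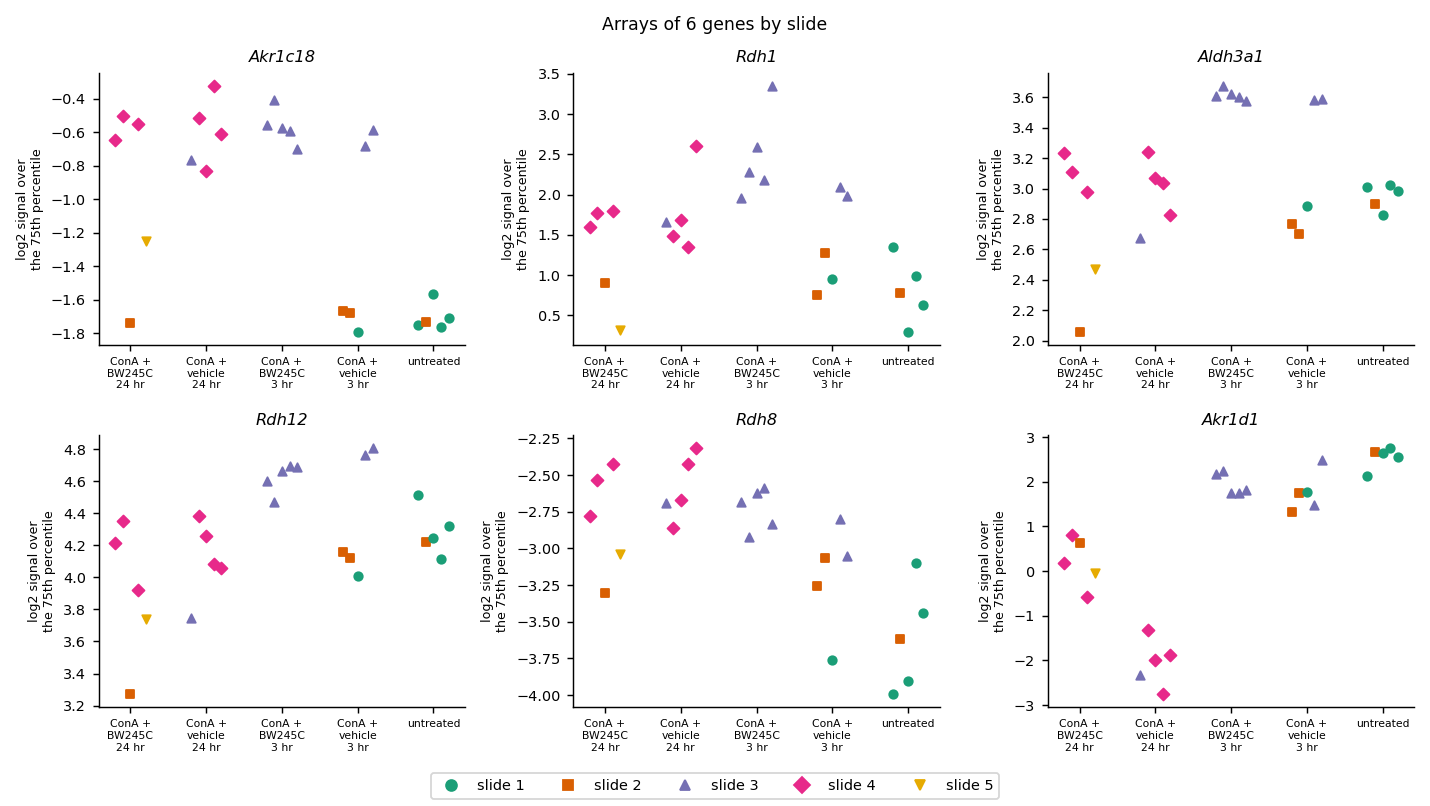
Log2 signal over the 75th percentile of the array for Akr1c18, Rdh1, Aldh3a1, Rdh12, Rdh8 and Akr1d1 on each array, by group, with colour and marker for the slide. In the first 5 genes the arrays of a group part by slide, with slides 3 and 4 above slides 1, 2 and 5 in ConA + vehicle 3 hr and ConA + BW245C 24 hr livers, and in Akr1d1 they do not.

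At 24 hr most of these genes were higher with the agonist than with vehicle. In ConA + BW245C 24 hr livers 31 of the 51 genes were higher than in ConA + vehicle 24 hr livers and 1, Rdh13, was lower. Of all genes tested 26.6% were called, 17.6% higher and 8.96% lower, and of the 51 genes 62.7% were called. The median difference was 0.52 over the 51 genes and 0.014 over all genes. Arrays did not overlap for 19 genes on the higher and 1 on the lower side, against 12% and 5.42% of all genes. The series matrix values gave 1958 of all genes higher and 2618 lower in place of 2661 and 1355, and 29 of the 51 genes higher and 2 lower. Within slide 4 (3 arrays against 4) each of the 32 called genes kept its direction, with a median over the 51 genes of 0.35. Those arrays were among the ones that made the calls, so the kept signs are no independent check. This comparison shares its ConA + vehicle 24 hr arrays with the one against untreated liver, so their values are set side by side without an overlap between them.

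Akr1d1 and Akr1c6 had the largest agonist differences at 24 hr. Akr1d1 stood at 0.18, 0.81, 0.64, -0.58 and -0.04 in ConA + BW245C 24 hr livers, against -2.32, -1.32, -1.98, -2.76 and -1.89 in ConA + vehicle 24 hr livers. It was 4.78-fold higher (log2 2.26, SE 0.26, adjusted p = 5.38e-06) on all 5 arrays, with group means of 0.20 ± 0.55 and -2.05 ± 0.54 (SD, n = 5 each), beside 2.55 ± 0.25 in untreated livers. Akr1c6 stood at 7.30, 8.17, 8.48, 7.17 and 7.55 in ConA + BW245C 24 hr livers, against 4.72, 6.49, 6.00, 4.77 and 5.72 in ConA + vehicle 24 hr livers. It was 4.59-fold higher (log2 2.20, SE 0.27, adjusted p = 1.13e-05), again without overlap. The other steroid reductases that rose were Akr1c19 (1.23), Akr1c14 (1.12), Akr1c12 (0.93) and Akr1c13 (0.52). That makes 6 of 7 (85.7%) for that group, against 17.6% of all genes.

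Adh1 stood at 6.998, 7.73, 8.18, 6.67 and 7.42 in ConA + BW245C 24 hr livers, against 5.72, 6.21, 6.54, 5.96 and 6.39 in ConA + vehicle 24 hr livers. It was 2.36-fold higher (log2 1.24, SE 0.20, adjusted p = 0.000105), and Adh4 (1.12) and Adh5 (0.83) rose too. Adh7 had a difference of 0.18 (SE 0.19, adjusted p = 0.528). Aldh1a1 and Aldh1a7 rose by 1.10 and 0.87, while Aldh1a3 stood at -2.22, -2.80, -0.63, -0.79 and -0.97 in ConA + BW245C 24 hr livers, against -0.96, 0.26, -0.59, -1.60 and -1.26 in ConA + vehicle 24 hr livers. Those Aldh1a3 arrays overlapped, with a difference of -0.65 (SE 0.34, adjusted p = 0.167). Of the 6 genes grouped under aldehyde clearance 5 (83.3%) rose. They were Aldh1b1 by 1.00, Aldh3a2 by 0.63, Aldh16a1 by 0.55, Aldh3b1 by 0.45 and Aldh2 by 0.43. Of the amino acid and folate enzymes 7 of 9 (77.8%) rose, from 0.33 for Aldh9a1 to 0.81 for Aldh8a1, and Aldh7a1 rose by 0.74. Of all genes tested 17.6% rose. Aldh18a1 (-0.41) and Aldh1l2 (-0.81) did not pass the test.

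In the remaining groups the share was smaller, with 3 of 7 sugar and aldehyde reductases and 5 of 14 retinol dehydrogenases higher. These were 42.9% and 35.7%, against 17.6% of all genes. Akr7a5 rose by 0.73, Akr1e1 by 0.37 and Akr1a1 by 0.32, and Akr1b8 (0.04), Akr1b3 (0.13), Akr1b10 (0.37) and Akr1b7 (0.43) did not pass the test. Rdh16f2 rose by 1.03, Rdh16 by 0.90, Rdh9 by 0.88, Rdh7 by 0.87 and Rdh5 by 0.57. Rdh16 stood at -0.09, 0.31, 0.61, -1.19 and 0.00 in ConA + BW245C 24 hr livers, against -1.77, -1.32, -0.78, -0.38 and -0.63 in ConA + vehicle 24 hr livers, and the fourth agonist array lay inside the vehicle range. Rdh13 stood at -1.18, -1.07, -1.13, -1.16 and -1.21 in ConA + BW245C 24 hr livers, against -0.78, -0.96, -0.91, -0.86 and -0.56 in ConA + vehicle 24 hr livers, lower at a log2 difference of -0.34 (SE 0.09, adjusted p = 0.00721). Rdh18-ps (-0.01), Rdh10 (0.09), Rdh14 (0.06) and Rdh11 (0.34) did not pass the test. Nor did Rdh19 (0.48, adjusted p = 0.153, or 0.0425 with slides as a block), Aldh1a2 (-0.61), Rdh1 (-0.48), Akr1c18 (-0.33), Rdh8 (-0.22), Rdh12 (-0.21) and Aldh3a1 (-0.20). With the slide as a fixed block Rdh16, Aldh3b1, Aldh9a1 and Akr1a1 were no longer called (adjusted p = 0.096, 0.0966, 0.0886 and 0.0507).

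**Figure D4:**
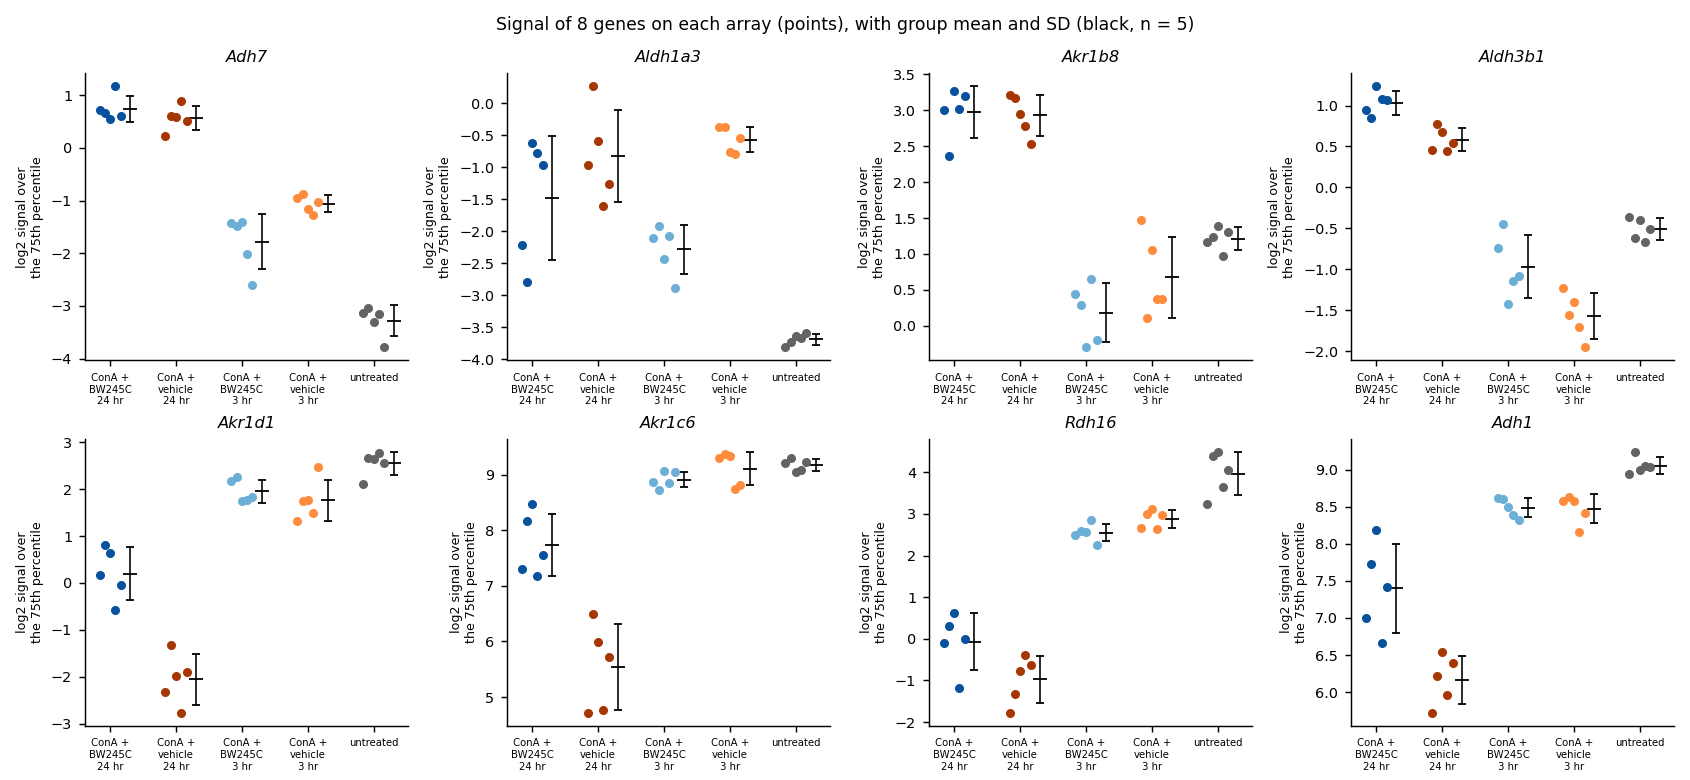
Log2 signal over the 75th percentile of the array for 8 genes, 1 point per array, with the group mean and SD (n = 5) in black. Akr1d1, Akr1c6 and Adh1 are higher with BW245C than with vehicle at 24 hr without overlap, and Aldh1a3 is lower with BW245C than with vehicle at 3 hr without overlap.

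At 3 hr fewer of these genes differed between agonist and vehicle, and they went both ways. In ConA + BW245C 3 hr livers 5 of the 51 genes were higher and 6 lower than in ConA + vehicle 3 hr livers. Of all genes tested 28.6% were called, and of the 51 genes 21.6%. The median difference was -0.0073, against -0.037 over all genes. Arrays did not overlap for 1 gene on the higher and 2 on the lower side, against 3.98% and 9.49% of all genes. Other scalings split the calls differently, into 6 higher and 4 lower with the series matrix values and 3 higher and 6 lower after quantile normalization. Over all genes the split of 1776 higher and 2547 lower became 2873 and 1754 with the series matrix values (median shift 0.114). After quantile normalization the split of all genes was 1685 and 2519. With the slide as a fixed block Aldh1a3, Aldh3b1 and Rdh18-ps were called, and of all genes 854 were higher and 916 lower. Within slide 3 (5 arrays against 2) each of the 11 genes kept its direction, with Akr1c18 at only 0.067 and Aldh3a1 at 0.030. These arrays were among those that made the calls, so a kept sign is no independent check.

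Aldh1a3 had the largest agonist difference at 3 hr. It stood at -2.11, -1.92, -2.44, -2.07 and -2.88 in ConA + BW245C 3 hr livers, against -0.38, -0.37, -0.76, -0.79 and -0.55 in ConA + vehicle 3 hr livers, 3.28-fold lower (log2 -1.72, SE 0.34, adjusted p = 0.000935, or 0.036 with slides as a block). All 5 agonist arrays lay below the vehicle arrays. Within slide 3 the difference was -1.61. Adh7 stood at -1.42, -1.47, -1.41, -2.02 and -2.60 in ConA + BW245C 3 hr livers, against -0.96, -0.87, -1.15, -1.27 and -1.03 in ConA + vehicle 3 hr livers, lower without overlap (log2 -0.73, SE 0.19, adjusted p = 0.00793, or 0.0887 with slides as a block). Aldh3b1 stood at -0.74, -0.44, -1.43, -1.15 and -1.08 in ConA + BW245C 3 hr livers, against -1.23, -1.56, -1.40, -1.70 and -1.95 in ConA + vehicle 3 hr livers, 1.52-fold higher (adjusted p = 0.00491) with 1 agonist array inside the vehicle range. Rdh18-ps was higher by 0.51 (adjusted p = 0.00902), and by 0.12 with a normexp background (adjusted p = 0.299). Aldh18a1 (-0.71), Rdh9 (-0.52), Aldh3a2 (-0.43) and Rdh10 (-0.39) were the other genes called lower. The probe of Aldh18a1 was well above background on 1 of 5 ConA + BW245C 3 hr arrays and 4 of 5 ConA + vehicle 3 hr arrays, and its difference was -0.22 with a normexp background (adjusted p = 0.0551). Called higher too were Rdh1 (1.06), Akr1c18 (0.71) and Aldh3a1 (0.51). None of these 7 was called with the slide as a block, where the differences of Rdh1, Akr1c18 and Aldh3a1 were 0.48, 0.08 and 0.05.

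The signed agonist difference, BW245C minus vehicle, was higher at 24 hr than at 3 hr for 30 of the 51 genes and lower for 4, tested as an interaction. A higher signed value is not always a larger one, as for Adh7 (0.18 at 24 hr and -0.73 at 3 hr). Of all genes tested 30% were called here, 19.2% upward and 10.8% downward, and of the 51 genes 66.7%. The median of this difference was 0.63 over the 51 genes and 0.104 over all genes. Largest were Akr1c6 (2.40, SE 0.39, adjusted p = 0.00026), Akr1d1 (2.07, SE 0.36, adjusted p = 0.000484), Rdh9 (1.40), Akr1c14 (1.35) and Rdh16f2 (1.28). The downward ones were Rdh1 (-1.54), Akr1c18 (-1.04), Aldh1a2 (-1.01) and Rdh18-ps (-0.52). Series matrix values gave 24 of the 51 genes upward and 8 downward, while over all genes they turned the split from 2908 upward and 1634 downward into 1435 upward and 3057 downward (median shift -0.227). The fixed slide block left 504 of all genes upward and 420 downward, and 8 of the 51 genes called, all upward, Akr1c6 (1.71) and Akr1d1 (2.18) among them.

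**Figure D5:**
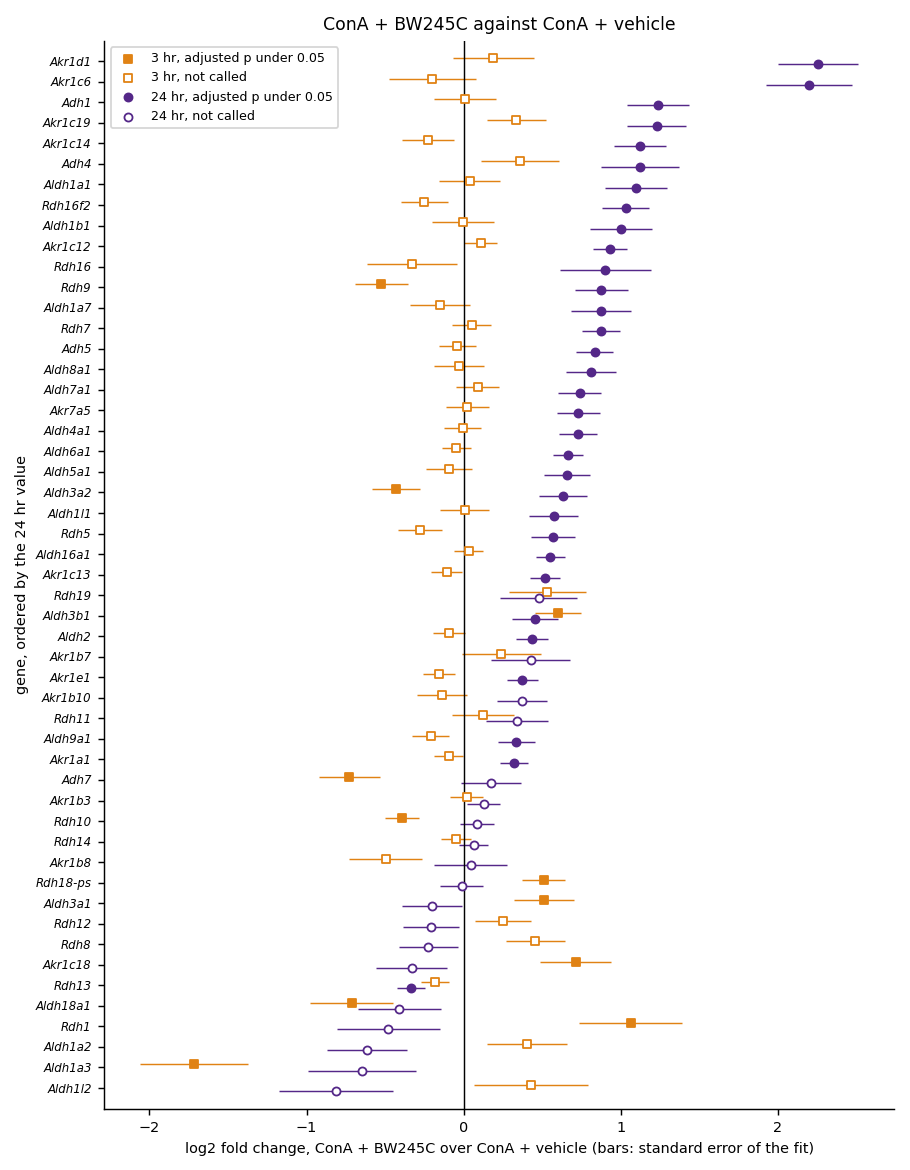
Log2 fold change of each of the 51 genes in ConA + BW245C over ConA + vehicle liver at 3 hr (squares) and 24 hr (circles), with the standard error of the fit, filled where the adjusted p was under 0.05. The 24 hr values reach 2.26 for Akr1d1 and 2.20 for Akr1c6, and the lowest 3 hr value is -1.72 for Aldh1a3.

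Lists of genes that work beside these enzymes are set here beside the shares of all genes tested, 39.1% lower and 29.8% higher at 24 hr after ConA, and 37% lower and 25% higher at 3 hr. Of 20 measured genes of retinoid storage, transport and signalling, 14 (70%) were lower and 2 (10%) higher at 24 hr, with a median change of -1.03. At 3 hr 10 (50%) were lower and 3 (15%) higher, with a median of -0.24, and the share called, 65%, was near the 62% of all genes. Rbp4, the carrier of retinol in blood, changed by -1.29 (SE 0.09), Dgat2, a triglyceride enzyme that can also esterify retinol, by -1.74 (SE 0.10) and Bco2, a carotenoid oxygenase, by -1.71 (SE 0.14) at 24 hr. At 3 hr the retinol-esterifying Lrat changed by -3.28 (SE 0.25), or 9.69-fold, and the retinoic acid receptors Rarg and Rara by -1.999 (SE 0.11) and -1.29 (SE 0.12). Of 26 other alcohol and carbonyl enzymes 23 (88.5%) were lower and 2 higher at 24 hr, median -1.63. The glucocorticoid-activating Hsd11b1 by -2.38 and the dihydrodiol dehydrogenase Dhdh by -2.31. At 3 hr 9 (34.6%) of the 26 were lower and 2 (7.69%) higher, Xdh, xanthine dehydrogenase, by 1.97 and Adhfe1, a hydroxyacid dehydrogenase, by 0.59, with Srd5a1, a steroid reductase, at -0.93.

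Of 20 targets of Nrf2, the factor of the antioxidant response, 11 (55%) were lower and 5 (25%) higher at 24 hr, and 9 (45%) lower and 3 (15%) higher at 3 hr. The shares called, 80% and 60%, lay near the 68.9% and 62% of all genes. Hmox1, haem oxygenase, rose 14.7-fold at 3 hr (log2 3.88, SE 0.18), while Gclc of glutathione synthesis changed by -1.16 and Me1, malic enzyme, by -2.31. At 24 hr Me1 changed by -3.82, and the glutathione transferases Gstm3 and Gstm1 by -3.16 and -2.67. Of 20 nuclear receptors and factors of hepatocyte metabolism 17 (85%) were lower and 2 higher at 24 hr, and 11 (55%) lower and 4 (20%) higher at 3 hr. The bile acid receptor Nr1h4 changed by -1.43, Nr1i3 by -1.37 and Cebpa by -1.16 at 24 hr. At 3 hr Nr0b2, the bile-acid-induced repressor, changed by -4.36, or 20.6-fold, and Cebpb by 2.49. With BW245C at 24 hr, 19 of the 26 other alcohol and carbonyl enzymes were higher and 0 lower, as were 10 and 0 of the 20 nuclear receptors, 8 and 2 of the 20 retinoid genes, and 6 and 2 of the 20 Nrf2 targets, against 17.6% higher and 8.96% lower of all genes.

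Markers of liver cell types are given as counts, to be read against the same shares of all genes. Of 10 hepatocyte markers 9 were lower and 1 higher at 24 hr after ConA, and their summed log2 level was 12.06 to 12.40 in ConA + BW245C 24 hr, 11.94 to 12.33 in ConA + vehicle 24 hr, 12.65 to 12.85 in ConA + BW245C 3 hr, 12.67 to 13.05 in ConA + vehicle 3 hr and 12.46 to 12.69 in untreated livers. Between the 24 hr agonist and vehicle groups 2 of the 10 were higher and 0 lower, a share near the 17.6% of all genes. At 3 hr after ConA 5 of the 10 hepatocyte markers were higher and 0 lower, 6 of 9 neutrophil and 6 of 8 T and NK cell markers were higher, 7 of 10 stellate cell markers were lower (median -0.82), and 4 of 8 Kupffer cell and 4 of 10 sinusoidal endothelial markers were lower. Lrat stands in the stellate list as well as the retinoid one. Of 9 measured neutrophil markers 6 were higher at 24 hr after ConA, and 5 were lower with BW245C than with vehicle at 24 hr. Their summed level was 7.14 to 7.74, 8.06 to 8.65, 7.52 to 8.12, 7.56 to 8.23 and 6.96 to 7.09 in the same order of groups. Of 8 T and NK cell markers 7 were higher at 24 hr, of 8 Kupffer cell markers 7 were lower, and of 10 sinusoidal endothelial markers 6 were lower and 3 higher. The summed T and NK level was 5.26 to 6.24, 5.56 to 6.28, 6.35 to 6.89, 5.66 to 6.63 and 5.36 to 6.33 in that order. Its ConA + vehicle 24 hr and untreated ranges thus overlapped. The summed endothelial level was 5.53 to 5.75, 5.51 to 5.70, 6.02 to 6.51, 5.81 to 6.29 and 6.63 to 6.89. The summed Kupffer level was 4.68 to 5.76, 4.44 to 5.25, 5.76 to 6.70, 5.64 to 6.91 and 6.47 to 7.14 in that order. Of 10 stellate cell markers 5 were lower at 24 hr after ConA and 7 were higher with BW245C than with vehicle, with summed levels of 6.61 to 6.81, 6.33 to 6.61, 6.60 to 7.03, 6.44 to 7.09 and 7.10 to 7.32. Of 7 bile duct markers 2 were higher and 1 lower at 24 hr, 42.9% called against 68.9% of all genes. Their summed level was 1.72 to 2.38, 2.32 to 2.45, 1.79 to 2.08, 1.89 to 2.27 and 1.76 to 1.97 in that order. Ncr1 was not above background, and Cd68, Emr1, Ly6g and Trac were not matched to a probe by symbol. The part of these shifts in the changes of the dehydrogenase genes was not tested.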

How the data were processed

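RNA of 25 livers was hybridised to 1-colour Agilent arrays, 59305 non-control spots each. The deposited files give processed signal intensity per spot, made with Agilent Feature Extraction 10.7.3.1 per the file headers (9.1 per the submitters' processing notes). The files' intensity is background-subtracted, per the file headers. The authors' series matrix values, deposited beside them, served as an alternative after log2 was taken. On each array they were the processed signal times a nearly constant factor (the ratio had a coefficient of variation of at most 0.221%). How that factor was chosen is not given in the sources used here.

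Log2 of each spot was taken and the 75th percentile of the array's non-control spots subtracted. Flagged spots were then left out and the log2 values of a probe's spots averaged. Of 55681 probes 33517 were well above background on at least 5 arrays, and 19639 of these had a symbol. The brightest probe stood for its gene. Accessions were matched to symbols through RefSeq (26582 probes matched). Groups come from the sample titles. Differences were fitted with limma 3.58.1 in R 4.3.3, with 1 mean per group and Benjamini-Hochberg adjustment over 15118 genes. The fit alone had been tested before on simulated gene values, which held no slide effect. The steps before it were not tested that way. Figures were drawn with matplotlib 3.10.9. 0 spots were saturated.

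The genes and lists were chosen with earlier results of these data known. By the rule for naming, every one of the 51 genes may be named, and of each of the 4 partner lists the 3 genes of smallest p per ConA comparison, not all of which are reported here. Gene order on chromosomes is that of RefSeq. The labels number the mice within each group, and same-numbered arrays did not deviate together (median correlation -0.014 over 50 pairs).

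Alternatives were normexp background, quantile normalization, the median of probes found on all arrays, the series matrix values, other filters, the mean of probes, the slide or the replicate as a block, the compared groups alone, each array left out, and an adjusted p of 0.01. Values within slides were added after seeing the data.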

Additional observations from a re-analysis of the deposited data

Results flagged for a closer look

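Among 30 of these genes, each group of 5 arrays was searched for an array far from the rest, and 9 of 150 groups held one, where chance alone marks about 5% of groups by the limit used (Dixon's, 95%). Adh7 stood at 1.17 in ConA + BW245C 24 hr replicate 4, above the other arrays of its group, and Akr1b8 at 2.36 in replicate 2 of that group, below them. Rdh1 stood at 2.61 in ConA + vehicle 24 hr replicate 5, above the rest. In ConA + BW245C 3 hr livers, Rdh11 stood at 1.92 in replicate 5, below the rest, and Aldh1l2 at -5.01 in replicate 1, above them, where no array of the group was well above background. Aldh1l1 stood at 7.97 in ConA + vehicle 3 hr replicate 4, below the rest. In untreated livers Akr1c14 stood at 4.85 in replicate 4 and Akr1c18 at -1.56 in replicate 3, both above the rest, and Aldh1a1 at 7.45 in replicate 1, below them.

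The agonist difference was not the same at both times for 34 genes by the interaction of the limma fit, and the largest in each direction are given here. The signed difference was higher at 24 hr for Akr1c6 (2.40, adjusted p = 0.00026), Akr1d1 (2.07, adjusted p = 0.000484), Rdh9 (1.40, adjusted p = 0.000369), Akr1c14 (1.35, adjusted p = 0.000412) and Rdh16f2 (1.28, adjusted p = 0.00032). It was lower at 24 hr for Rdh1 (-1.54, adjusted p = 0.0167), Akr1c18 (-1.04, adjusted p = 0.0188), Aldh1a2 (-1.01, adjusted p = 0.0374) and Rdh18-ps (-0.52, adjusted p = 0.0463). With slides as a block 8 of the 34 genes were called, and none of these last 4 was, with Akr1c18 at -0.064, Rdh1 at -0.48, Aldh1a2 at -0.95 and Rdh18-ps at -0.67. A normexp background gave -0.23 for Aldh1a2 and -0.012 for Rdh18-ps, neither called.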

How the results depend on the processing

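Of 2506 values recomputed under other settings, which take single genes only in comparisons where they were among the largest changes, 2364 kept their direction and side of the threshold, or stayed within 1.5 times of a count, 139 lost their call or moved by more, and 3 reversed. The slide mattered most. With the slide as a fixed block, 15 of the 51 genes were called at 3 hr after ConA instead of 23, 3 for the agonist at 3 hr instead of 11, 8 for the interaction instead of 34, and 4 of the other alcohol and carbonyl enzymes at 3 hr instead of 11. As a random block the agonist at 3 hr gave 4 and the interaction 17. Among these the fixed block reversed Akr1c18 (-0.11) and Rdh1 (-0.028) at 24 hr after ConA, and normexp background turned Aldh1l2 between the ConA times to -0.017. Over all 51 genes, with the other scalings and the fixed block, called values also reversed for Akr1c18 between the ConA times under the block (-0.092) and for Rdh8 there under normexp (-0.048), and uncalled ones became called with the other sign for Aldh3a1 at 24 hr under the block (-0.95) and Aldh1l2 at 3 hr under normexp (0.21). The cause was not tested. An adjusted p of 0.01 left 4 genes for the agonist at 3 hr, 14 at 3 hr after ConA, 19 for the interaction and 7 other alcohol and carbonyl enzymes at 3 hr, and fitting the compared groups alone left 5 for the agonist at 3 hr. Leaving out 1 array gave 6 to 12 genes for the agonist at 3 hr (6 without ConA + vehicle 3 hr replicate 1, 2 or 3) and 7 to 12 other alcohol and carbonyl enzymes at 3 hr (7 without ConA + vehicle 3 hr replicate 4). It gave 17 to 25 genes at 3 hr and 45 to 47 at 24 hr after ConA, 29 to 33 for the agonist at 24 hr and 32 to 38 for the interaction. With the replicate number as a block, the counts were 32 and 9 for the agonist at 24 and 3 hr, 46 and 26 after ConA, and 35 for the interaction. The numbers did not pair the mice (correlations of -0.361 to 0.342, and 4 of 25 arrays closest to their own number). Signal limits Aldh1l2, Aldh18a1, Aldh1a2 and Rdh18-ps, which were not above background on every array.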
